A study of Mus musculus with 10 samples.

Results

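Choroid plexus genes were followed across whole-brain RNA from 5 mice that overexpressed Glo1 from a bacterial artificial chromosome transgene (Tg) and 5 wild-type littermates (WT). Both groups were naive adult males with the background C57Bl/6J, and each brain was measured on its own Affymetrix gene array, so that every group had 5 biological replicates. Glo1 encodes glyoxalase 1, an enzyme that detoxifies methylglyoxal. The labels name neither the copy number of the transgene nor the cells that express it. Values are the authors' log2 expression values, on which 1 unit is a doubling of signal. The 10 genes were Ttr, Kl, Sostdc1, Folr1, Kcnj13, Kcne2, Slc4a5, Clic6, Aqp1 and Otx2, of 19938 genes with a value. They were taken as named genes of the plexus, by the platform's probe set assigned to that symbol alone. Each of the 10 had 1 such probe set, so no choice between probe sets arose. They were chosen without using the values, although with earlier results of these data known.

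The choroid plexus is a sheet of secretory epithelium over leaky capillaries that hangs into the brain ventricles and makes cerebrospinal fluid. Its epithelial cells move sodium, chloride, bicarbonate and water from blood to fluid, shuttle vitamins such as folate, and secrete carrier and signalling proteins. Transthyretin and klotho are its best known secreted products in the mouse. In bulk RNA, fewer plexus cells and less RNA per plexus cell cannot be told apart.

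The 10 arrays had median log2 values between 7.95 and 8.05 over 28944 tested probe sets. Similar medians can come from the processing and do not show that the arrays were alike. The mean r of an array with the others was 0.9924 for WT replicate 2 and 0.9945 to 0.9971 for the rest. Glo1 read 11.88 to 12.23 in Tg and 10.27 to 10.75 in WT on its brightest probe set, a 2.85-fold difference in the direction of the labels. WT replicate 2 stood apart from the other arrays. The mean of 12 cerebellar markers was 10.74 to 10.85 in Tg and 10.93 to 11.04 on the other WT arrays, and 8.49 on WT replicate 2. Gabra6, a receptor subunit of cerebellar granule cells, read 6.03 there and 10.84 to 11.29 elsewhere. The mean of 6 pituitary markers was 9.54 on Tg replicate 2 and 9.92 on WT replicate 2, against 6.57 to 6.88 on the other 8 arrays. The mean of 4 blood markers was 7.999 on WT replicate 2 and 6.92 to 7.38 on the other 9 arrays. Group differences and correlations are therefore given with and without WT replicate 2.

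The plexus genes did not differ detectably between Tg and WT brain. Of the 10 genes, 0 passed the limma test at an adjusted p of 0.05, where 0.0345% of all tested probe sets did, and 0 passed at an unadjusted p of 0.05, where 2.21% did. In 0 of the 10 did the Tg and WT values fail to overlap, against 0.460% of all probe sets, and without WT replicate 2 again in 0 of the 10, against 3.10%. The median difference of the 10 genes was 0.012 log2 units, with 7 higher and 3 lower in Tg by any amount, and the median over all probe sets was -0.003. Without WT replicate 2 the median was -0.017, with 3 higher and 7 lower, against 0.008 over all probe sets. In that fit again 0 of the 10 passed, either adjusted (0.0380% of all probe sets) or unadjusted (11.0% of all probe sets). Differences were small against their intervals, and the widest interval belonged to Kcnj13.

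**Figure D1:**
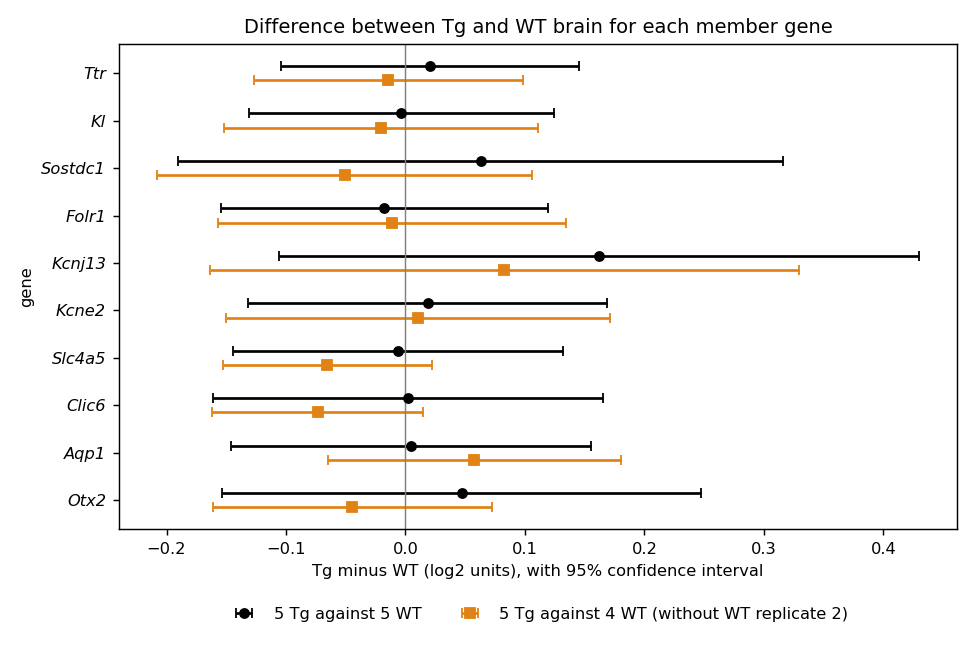
Difference between Tg and WT brain (log2 units, Tg minus WT) for each of the 10 choroid plexus genes, with 95% confidence intervals from limma. Circles compare 5 Tg with 5 WT brains and squares leave out WT replicate 2; every interval includes 0, and that of Kcnj13 is the widest.

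The secreted products come first. Ttr encodes transthyretin, the carrier of thyroid hormone and retinol that the plexus releases into cerebrospinal fluid. It read 13.44, 13.39, 13.24, 13.37 and 13.40 in Tg replicates 1 to 5, and 13.43, 13.21, 13.30, 13.34 and 13.45 in WT replicates 1 to 5. The groups overlapped almost fully, and the lowest value of the 10 was that of WT replicate 2. The difference was 0.02 log2 units (95% interval -0.10 to 0.15, two-sided exact permutation p = 0.714), and -0.01 (-0.13 to 0.10) without WT replicate 2. Its probe set was among the brightest of the array, with 0.349% of probe sets brighter.

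Kl encodes klotho, a co-receptor for the hormone FGF23 whose outer part is shed into cerebrospinal fluid. Kl read 9.04, 9.02, 8.86, 9.05 and 9.18 in Tg, and 9.03, 8.96, 9.05, 8.98 and 9.13 in WT. Tg replicate 3 was the lowest of all arrays and Tg replicate 5 the highest, so the WT values lay within the Tg range. The difference was -0.003 (-0.13 to 0.12, exact permutation p = 0.976), and -0.02 (-0.15 to 0.11) without WT replicate 2. Sostdc1 encodes a secreted antagonist of bone morphogenetic proteins that also modulates Wnt signalling. Its values were 8.96, 8.72, 8.78, 8.55 and 8.72 in Tg, and 8.82, 8.23, 8.86, 8.77 and 8.73 in WT. WT replicate 2 lay 0.57 log2 units below the mean of the other WT arrays, and the remaining values of both groups were mixed. The Tg mean was 8.75 ± 0.15 and the WT mean 8.68 ± 0.26 (SD, n = 5 each). Their difference was 0.06 (-0.19 to 0.32), and it was -0.05 (-0.21 to 0.11) once WT replicate 2 was left out.

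Folr1 encodes folate receptor alpha, which takes folate across the plexus epithelium. It lay between 8.42 and 8.72 in Tg and between 8.57 and 8.73 in WT, with the lowest value on Tg replicate 3. Here WT replicate 2, at 8.67, sat in the middle of the arrays. The difference was -0.02 (-0.15 to 0.12, exact permutation p = 0.865), and -0.01 (-0.16 to 0.13) without that array.

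Ion and water transport was represented by 5 genes. Kcnj13 encodes the inward rectifier potassium channel Kir7.1 of the fluid-facing membrane. It read 10.45, 10.20, 10.18, 10.55 and 10.75 in Tg, and 10.24, 9.94, 10.33, 10.28 and 10.52 in WT. Both groups spread widely, from Tg replicate 5 at the top to WT replicate 2 at the bottom, and 3 of 5 Tg values lay above the WT median. The SD over the 10 arrays was 0.228, a spread that 4.07% of probe sets exceeded, and the median probe set had an SD of 0.101. On the 9 arrays other than WT replicate 2 its SD was 0.191 and 5.03% of probe sets exceeded it. The group mean was 10.42 ± 0.24 in Tg and 10.26 ± 0.21 in WT (SD, n = 5 each). The difference of 0.16 corresponds to 1.12-fold, with a 95% interval from 0.929-fold to 1.35-fold (exact permutation p = 0.294, limma adjusted p = 1). Leaving out WT replicate 2 gave 0.08 (-0.16 to 0.33).

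Kcne2 encodes a potassium channel beta subunit of the same membrane. Its values ran from 7.60 to 7.97 in Tg and from 7.62 to 7.81 in WT, with Tg replicate 5 highest, and the difference was 0.02 (-0.13 to 0.17), or 0.01 (-0.15 to 0.17) without WT replicate 2. Slc4a5, a sodium bicarbonate cotransporter, read 8.04, 8.03, 8.02, 8.11 and 8.10 in Tg, and 8.18, 7.83, 8.10, 8.14 and 8.07 in WT. The Tg values were tightly grouped, and the spread of WT came mainly from WT replicate 2. The Slc4a5 difference was -0.01 (-0.14 to 0.13), and -0.07 (-0.15 to 0.02, exact permutation p = 0.0794) without that array.

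Clic6, a member of the chloride intracellular channel family, read 8.40, 8.34, 8.34, 8.28 and 8.40 in Tg, and 8.37, 8.05, 8.44, 8.47 and 8.42 in WT. In WT, 3 of the 4 arrays other than replicate 2 lay above every Tg array, and replicate 2 lay below all of them. The Clic6 difference was therefore 0.002 (-0.16 to 0.17) with all arrays. It was -0.07 (-0.16 to 0.02; limma adjusted p = 0.506, exact permutation p = 0.0635) without WT replicate 2; 0 of 5 Tg values exceeded the WT median in either case. The smallest p that 5 against 4 arrays can give is 0.0159. Clic6 and Kcne2 both lie on chromosome 16.

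Aqp1 encodes the water channel aquaporin 1 of the fluid-facing membrane, which is also known from red blood cells and peripheral vessels. Aqp1 read 7.73, 7.78, 7.73, 7.86 and 7.56 in Tg, and 7.70, 7.94, 7.69, 7.67 and 7.64 in WT. It was the 1 gene of the 10 with its highest value on WT replicate 2, the array on which the blood markers were also highest. Of those, Alas2, an enzyme of heme synthesis in red cells, read 9.66 on that array and 7.93 to 8.25 on the others. The part of blood in the Aqp1 value was not tested. The difference was 0.005 (-0.15 to 0.16), and 0.06 (-0.06 to 0.18) without WT replicate 2.

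Otx2 encodes the homeodomain transcription factor that the plexus needs to form in the mouse embryo. Its values were 8.54, 8.61, 8.46, 8.47 and 8.57 in Tg, and 8.52, 8.12, 8.70, 8.60 and 8.47 in WT. WT replicate 2 lay 0.46 log2 units below the mean of the other WT arrays, and the other 9 arrays lay within 8.46 to 8.70. The difference was 0.05 (-0.15 to 0.25, exact permutation p = 0.778), and -0.04 (-0.16 to 0.07) without that array. Otx2 is also known from other parts of the nervous system, among them the developing cerebellum and the retinal pigment epithelium. The 12 cerebellar markers and Otx2 were both lowest on WT replicate 2, and the part of missing cerebellum in the Otx2 value was not tested.

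Kl and Kcnj13 had the most similar order of arrays of the 45 pairs (values with the correlations), so the 250 bases before the RefSeq start site of each are shown, with an Otx2 window that holds a core motif of Otx factors. Sequences are from RefSeq, build GRCm38.p6, and are given 5′ to 3′ on the gene's strand. Kl lies at chr5:150952357-150952606 on the plus strand, Kcnj13 at chr1:87394730-87394979 on the minus strand, and the Otx2 window at chr14:48665110-48665359 on the minus strand. Capitals mark TAATCC, the core bound by Otx-type homeodomains, or TATAAA, the letters of a TATA box, searched on both strands (GGATTA is TAATCC on the other strand).
Kl: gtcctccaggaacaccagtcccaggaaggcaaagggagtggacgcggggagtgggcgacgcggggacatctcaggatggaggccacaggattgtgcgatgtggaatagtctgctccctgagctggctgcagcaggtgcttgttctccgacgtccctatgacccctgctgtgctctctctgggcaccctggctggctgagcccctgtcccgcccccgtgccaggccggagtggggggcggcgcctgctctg
Kcnj13: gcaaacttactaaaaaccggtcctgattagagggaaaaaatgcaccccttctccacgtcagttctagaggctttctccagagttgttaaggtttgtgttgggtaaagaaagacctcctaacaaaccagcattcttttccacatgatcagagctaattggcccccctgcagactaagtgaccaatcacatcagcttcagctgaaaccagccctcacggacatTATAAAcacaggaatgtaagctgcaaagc
Otx2: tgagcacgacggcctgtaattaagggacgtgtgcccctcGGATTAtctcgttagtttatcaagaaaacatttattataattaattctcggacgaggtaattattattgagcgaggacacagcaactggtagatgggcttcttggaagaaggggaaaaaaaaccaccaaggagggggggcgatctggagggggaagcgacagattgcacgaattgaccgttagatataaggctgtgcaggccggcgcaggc
RefSeq windows were at hand for 6 of the 10 genes, 10 windows in all, since Otx2 had 4, of which a pair overlapped, and Kcne2 had 2. TAATCC was in 1 of the 10, the Otx2 window above, starting 211 bases before the start site, and in 6.25% of the 32851 windows of the table. TATAAA was in 3 of the 10, among them Kcnj13, where it began 29 bases before the start site, and in 12.4% of all windows. The Kl window held neither and was 66.8% G and C, against 45.2% for the Kcnj13 window.

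**Figure D2:**
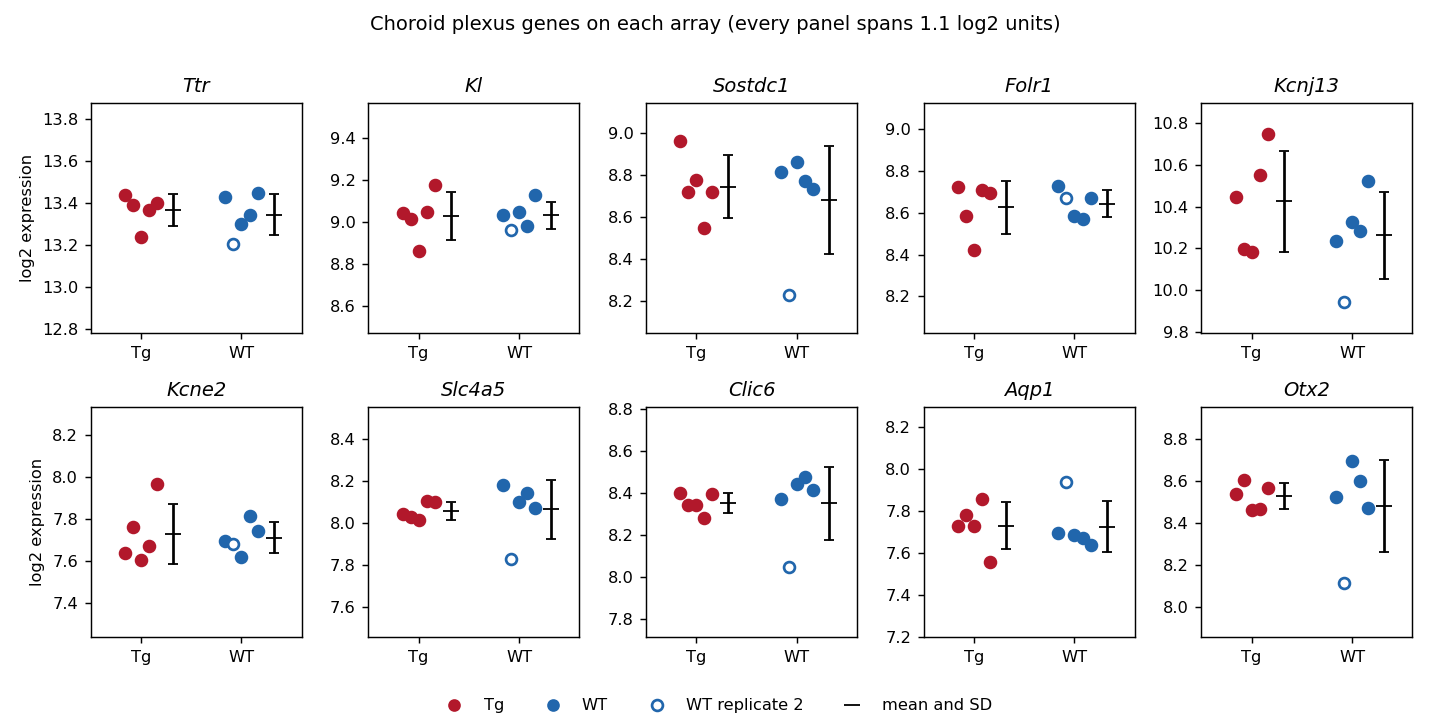
Log2 expression of the 10 choroid plexus genes on each array, Tg left and WT right, with group mean and SD (n = 5 each) beside the points; each panel spans the same height. The open circle is WT replicate 2, which was the lowest of the 10 arrays for 6 genes and the highest for Aqp1.

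WT replicate 2 was the lowest of the 10 arrays for 6 of the 10 genes, namely Ttr, Sostdc1, Kcnj13, Slc4a5, Clic6 and Otx2. Over all tested probe sets it was the lowest for 14.7%. Relative to the mean of the other WT arrays, the 6 genes lay lower there by between 0.17 and 0.57 log2 units, Ttr the least and Sostdc1 the most. Kl and Kcne2 deviated by -0.08 and -0.04, Folr1 by 0.03 and Aqp1 by 0.27. The median deviation was -0.235 for the 10 genes and 0.085 for all probe sets. WT replicate 2 was also low in cerebellar and high in pituitary and blood markers, and the part of these in its plexus values was not tested. Tg replicate 2 also carried pituitary signal. There the mean of the 10 genes was 9.04, within the range of 8.96 to 9.13 of the other Tg arrays.

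**Figure D3:**
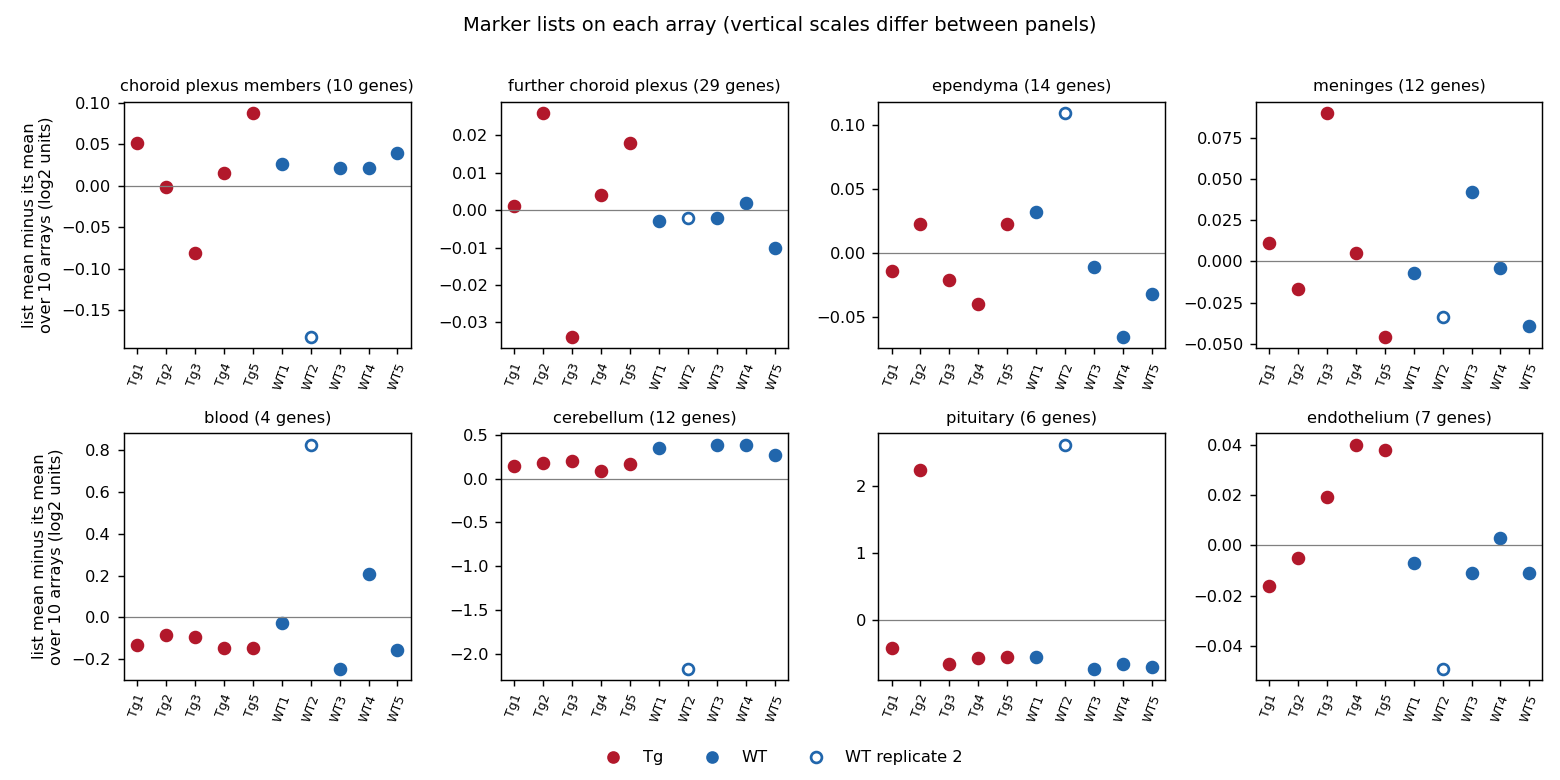
Mean log2 value of each marker list on each array, minus its mean over the 10 arrays, for the 10 choroid plexus genes and 7 other lists; Tg arrays stand left of WT arrays and vertical scales differ. WT replicate 2 (open circle) was lowest for the lists of the 10 plexus genes, cerebellum and endothelium, and highest for the ependymal, blood and pituitary lists.

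The next question was whether the plexus genes varied together between brains. Over all 10 arrays the 45 pairs of genes had a median Pearson r of 0.37, with 33 pairs positive and 12 negative. In 15 pairs the unadjusted permutation p was under 0.05, in 10 of them with a positive r, but 0 of 45 passed after Benjamini-Hochberg adjustment over the 45 pairs (lowest adjusted p = 0.0706). This count depended on the processing: 3 of 45 passed after median centring of the arrays and 0 after quantile normalization (lowest adjusted p = 0.054). On values centred within each genotype 4 passed (lowest adjusted p = 0.0235), 3 with a positive and 1 with a negative r. There the permutation took the centred values as 10 free values although centring fixes the group means, so its p-values tend to be too small. By Spearman's rho 1 passed, a positive one. With WT replicate 2 left out the median r was 0.14, with 26 pairs positive and 19 negative, and 0 of 45 passed (lowest adjusted p = 0.124). The genes are described in 3 patterns, which were set after the values were seen and carry no test of their own.

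In the first pattern, Ttr, Kl, Folr1, Kcnj13 and Kcne2 were positively correlated with each other in all 10 of their pairs, and remained so without WT replicate 2. Their median r was 0.60 over 10 arrays and 0.61 over 9. Each r was also taken with the 2 arrays farthest from the median of a pair's first gene left out. Tg replicate 3 or Tg replicate 5 was always among them. Dropping a gene's extreme arrays narrows its range and by itself tends to lower r, so what the pattern rested on was not tested. The median r was then 0.24 and the lowest -0.15, for Kl and Kcne2. In that setting Kl and Kcnj13 (0.78) and Ttr and Folr1 (0.68) had the highest r, and the other 8 pairs lay at 0.36 or below. Kl and Kcnj13 had the most similar order of arrays, with r = 0.78 (permutation p = 0.00891, adjusted p = 0.1) and Spearman rho = 0.89 (permutation p = 0.00106, adjusted p = 0.0477). On 9 arrays, WT replicate 2 left out, their r was 0.81 (exact p = 0.00553, adjusted p = 0.124) and rho 0.87 (exact p = 0.00451). On values centred within each genotype it was 0.85.

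Ttr and Folr1 had r = 0.59 (permutation p = 0.0690) and rho = 0.53 (permutation p = 0.124) over 10 arrays. WT replicate 2 was lowest for Ttr and not for Folr1, and without it r was 0.86 (exact p = 0.00425, adjusted p = 0.124) and rho 0.68 (exact p = 0.0503). Tg replicate 3 was the lowest of the 10 arrays for Kl, Folr1 and Kcne2 and second lowest for Ttr and Kcnj13, while Tg replicate 5 was the highest for Kl, Kcnj13 and Kcne2.

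In the second pattern, Clic6, Otx2, Slc4a5 and Sostdc1 had r of 0.69 to 0.91 in their 6 pairs over 10 arrays, and of -0.11 to 0.59 without WT replicate 2. Clic6 and Otx2 had r = 0.91 (permutation p = 0.00471, adjusted p = 0.0706) and rho = 0.61 (permutation p = 0.0672). Their r was 0.57 (exact p = 0.106) without WT replicate 2, and 0.45 without the 2 arrays farthest from the median of Clic6. Clic6 and Sostdc1 had r = 0.90 (permutation p = 0.00423, adjusted p = 0.0706) and rho = 0.62 (permutation p = 0.0595), and r = 0.59 (exact p = 0.0887) when that array was left out. Without Tg replicate 4 and WT replicate 2, r was 0.21.

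The third pattern was Aqp1 alone. Its r was negative with 8 of the other 9 genes over 10 arrays, Folr1 at 0.04 being the exception, and negative with all 9 without WT replicate 2. The strongest was with Clic6, at r = -0.83 (permutation p = 0.00205, adjusted p = 0.0706) and rho = -0.78 (permutation p = 0.0105). On 9 arrays it was r = -0.69 (exact p = 0.0406, adjusted p = 0.365) and rho = -0.70 (exact p = 0.0433), and r = -0.44 without Tg replicate 4 and WT replicate 2, the arrays farthest from the median of Clic6. Among all 19937 other genes ranked by r with Aqp1, the nearest of the plexus genes was Folr1, at rank 12145 with all arrays and 11397 without WT replicate 2. By r with Ttr, 6 of the other 9 plexus genes ranked in the top 5%, the highest such count of the 10 genes, and by r with Kl 4 did, with Otx2 3, and with each of the others 0 to 2. With WT replicate 2 left out the count was 3 for Kl and Folr1, 2 for Ttr, 1 for Kcnj13 and 0 for the other 6. All genes share the arrays and their normalization, so a correlation between them holds any common shift of an array as well.

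**Figure D4:**
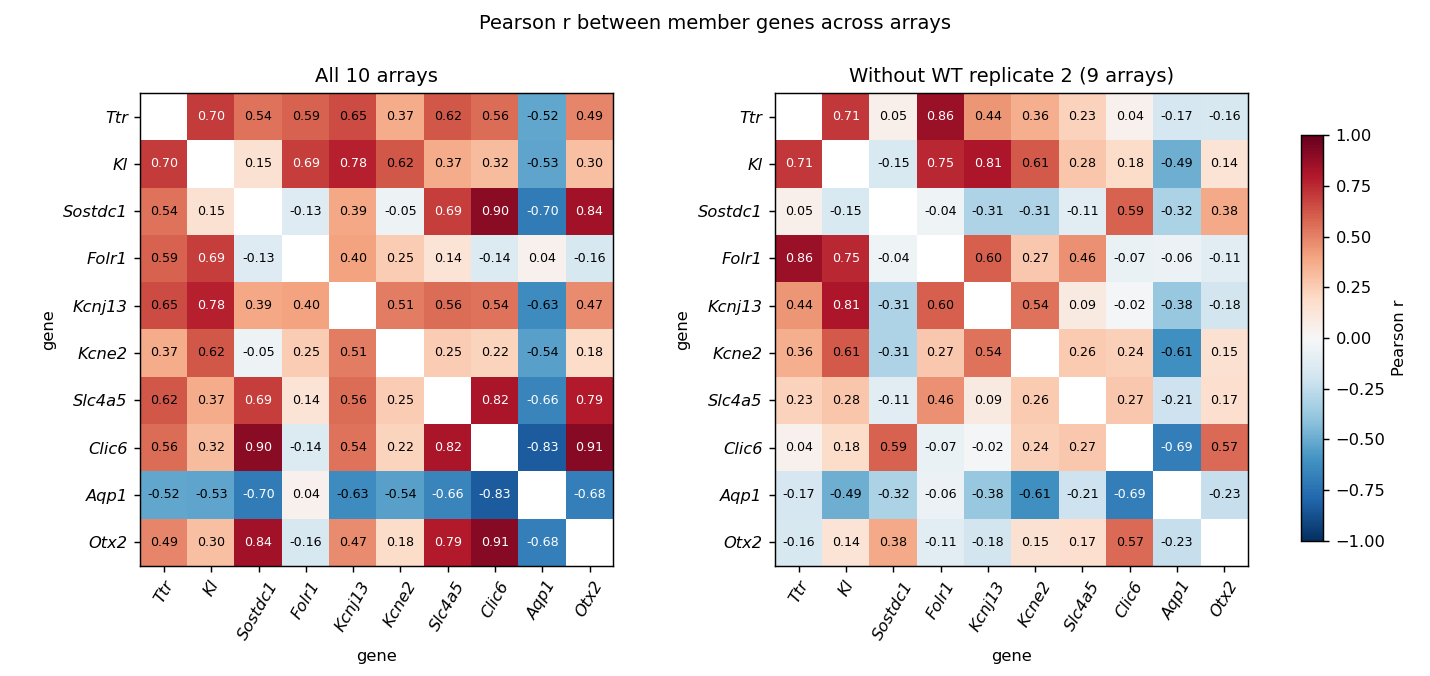
Pearson r between each pair of the 10 choroid plexus genes across all 10 arrays (left) and without WT replicate 2 (right), on a colour scale from -1 to 1. Ttr, Kl, Folr1, Kcnj13 and Kcne2 kept positive r in both, Clic6, Otx2, Slc4a5 and Sostdc1 had lower r on the right, and Aqp1 was negative in most cells.

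**Figure D5:**
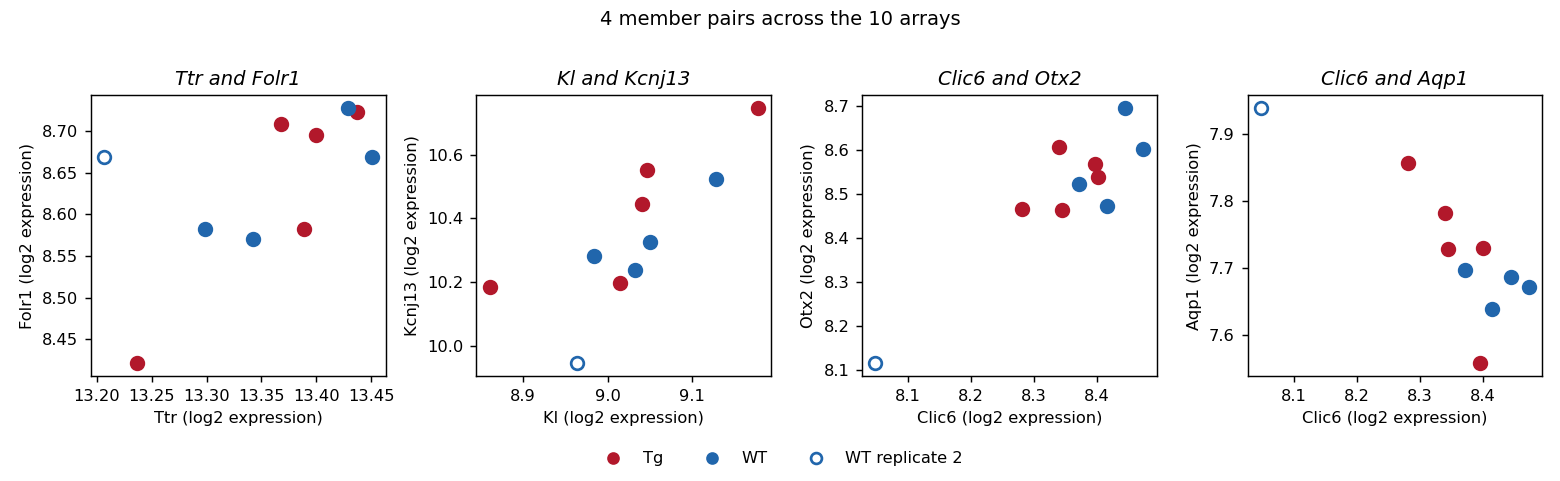
Log2 expression of 4 pairs of choroid plexus genes, 1 point for each array, red for Tg and blue for WT, with WT replicate 2 as the open circle. Ttr and Folr1, and Kl and Kcnj13, were positively correlated on the arrays other than WT replicate 2 (r = 0.86 and 0.81), while in the panels with Clic6 that array lay apart from the other 9.

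The genes most like the mean of the 10 plexus genes across arrays were looked up among 12899 other genes in the upper 60% of signal. Over 10 arrays they were Clip1 (r = 0.950), Ndst3, Trpm3, Tmem131, Mtrex, Fmnl2, Pxk and Sec13 (0.923). Clip1 encodes a microtubule plus-end protein, Ndst3 an enzyme of heparan sulfate synthesis, and Trpm3 a cation channel that the plexus also expresses. All 8 lay lower on WT replicate 2 than on the other WT arrays, by 0.17 to 0.57 log2 units. The mean they were ranked against was itself lowest on that array, so the ranking favoured genes low there. By the same rule without WT replicate 2, only Sec13, a coat protein of secretory vesicles, was again among the 8 (r = 0.933).

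Further plexus genes differed little between the groups. Of 33 listed, 29 had a value, and 0 of them passed the limma test in either direction, adjusted or at an unadjusted p of 0.05. By the size of the difference alone, 18 were higher and 11 lower in Tg, with a median of 0.011. Without WT replicate 2, 14 were higher and 15 lower, with a median of -0.006. In that fit 2 of 29 had an unadjusted p under 0.05, against 11.0% of all probe sets. They were Slc16a8 and Col9a3, both higher in Tg and named here for that p alone. Trpm3 read 10.41 ± 0.090 in Tg and 10.38 ± 0.205 in WT (SD, n = 5 each), a difference of 0.02 (95% interval -0.17 to 0.22), and of -0.07 (-0.18 to 0.04) without WT replicate 2. Trpm3 was 10.02 on WT replicate 2 and 10.27 to 10.51 elsewhere. Igf2, a growth factor made by plexus and meninges, differed by -0.02 (-0.15 to 0.11), and by 0.02 (-0.10 to 0.14) without WT replicate 2. For Htr2c, a serotonin receptor of plexus and neurons, the values were -0.05 (-0.19 to 0.10) and -0.06 (-0.21 to 0.09) in the same order. Vat1l differed by 0.000 (-0.13 to 0.13), or -0.06 (-0.13 to 0.02) without that array, and Cab39l by 0.003 (-0.12 to 0.13), or -0.04 (-0.14 to 0.06). Slc29a4, a monoamine transporter, differed by -0.02 (-0.12 to 0.07), or -0.03 (-0.12 to 0.07). The mean of these 29 genes was 8.40 on WT replicate 2, within the 8.36 to 8.42 of the other arrays, and the array was lowest for 7 of 29 (24.1%), against 6 of the 10 genes above.

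Neighbouring cell types were read by their own markers. In each of the 9 other lists, 0 genes passed the limma test over all probe sets, with or without WT replicate 2. Without that array, 11.0% of all probe sets had an unadjusted p under 0.05. So did 1 of 14 ependymal, 2 of 12 meningeal and 2 of 6 dentate markers. The 2 dentate markers differed in opposite directions, and the one lower in Tg was Calb1, which is also on the cerebellar list. The blood, pineal and retina, pituitary and habenula lists held 0. With all arrays each of these lists held 0, and endothelial and cerebellar markers follow below. Ependymal markers, from the ciliated cells that line the ventricles, had a list mean of 7.39 on WT replicate 2, 7.25 to 7.31 in Tg and 7.22 to 7.32 on the other WT arrays. Spag6l, a ciliary protein gene, differed by -0.03 (-0.12 to 0.06), or -0.02 (-0.11 to 0.07) without WT replicate 2. Meningeal markers averaged 8.37 to 8.51 in Tg and 8.38 to 8.46 in WT, and Dcn, the proteoglycan decorin, differed by 0.09 (-0.10 to 0.28), or 0.02 (-0.13 to 0.18) without WT replicate 2. Of 7 endothelial markers, 5 were higher and 2 lower in Tg by size, and 6 and 1 without WT replicate 2. Cldn5, a tight junction protein of brain vessels, was the 1 of 7 at an unadjusted p under 0.05 (2.21% of all probe sets). Its difference was 0.15 (0.04 to 0.27, limma adjusted p = 1). Without WT replicate 2 it was again the 1 of 7 (11.0% of all probe sets), at 0.19 (0.09 to 0.29, limma adjusted p = 0.407). Slc2a1, the glucose transporter of brain endothelium, differed by -0.01 (-0.18 to 0.16), or 0.01 (-0.17 to 0.19). Rlbp1, a retinoid carrier of retina, differed by 0.002 (-0.13 to 0.13), or 0.05 (-0.04 to 0.15). Calb2 of the habenula list differed by 0.14 (-0.16 to 0.45), and by -0.01 (-0.14 to 0.11) without WT replicate 2. Calb1 of the dentate and cerebellar lists, a calcium-binding protein, differed by 0.09 (-0.30 to 0.49), and by -0.11 (-0.21 to -0.02, limma adjusted p = 0.412) without that array, where both were lowest. Alas2 differed by -0.35 (-0.91 to 0.22), or -0.04 (-0.18 to 0.09) without it. Cerebellar markers had 12 of 12 higher in Tg with all arrays by size, 0 of them at an unadjusted p under 0.05. Without WT replicate 2, 12 of 12 were lower in Tg, 10 of them at an unadjusted p under 0.05 (11.0% of all probe sets) and 0 past the adjusted threshold; Gabra6 was then at -0.29 (-0.41 to -0.17). Gh, growth hormone of the pituitary list, read 13.14 on Tg replicate 2 and 13.46 on WT replicate 2, against 7.47 to 8.25 on the other arrays.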

How the data were processed

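RNA of whole brains was prepared with TRIzol and an RNeasy clean-up and given a biotin label, per the labels' protocols, with 1 array for each mouse. The submitters' processing notes name Affymetrix Expression Console, version 1.1.2, without its settings. The authors deposited log2 values, which range between 3.28 and 14.74 and were used unchanged. Of 35556 rows, 6612 platform controls, taken as those numbered before the first transcript cluster, were left out. Of the 28944 tested probe sets, 21789 had 1 gene, 1621 several and 5534 none named here. Symbols were updated through Entrez identifiers (21698 matched the RefSeq table of GRCm38.p6), and the brightest probe set stood for a gene. No probe set with several genes was named.

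Tg and WT were compared with limma 3.58.1 in R 4.3.3 (lmFit, eBayes, no covariates), with Benjamini-Hochberg adjustment over all 28944 probe sets and a threshold of 0.05, and with two-sided exact permutation tests of the mean difference per gene (252 assignments; the smallest p is 0.00794). Correlations used Pearson's r and Spearman's rho with 100000 permutations over 10 arrays and all permutations over fewer (Python 3.11.15, numpy 2.4.6, scipy 1.17.1). Both steps were tested on simulated data. The members and gene lists were chosen with earlier results of these data known. The text names the 10 genes, Glo1, the 8 genes most like the 10 by r, the 6 brightest further plexus genes and the brightest gene of every other list; Gabra6, Cldn5, Slc16a8, Col9a3 and the patterns among the 10 were chosen after their values were seen. Alternatives changed the normalization, filter, variance model, array weights, covariates, correlation measure and arrays. Same-numbered Tg and WT replicates were checked for pairing: their deviations correlated at 0.01, 0.33, 0.45, -0.47 and 0.10. For replicates 2 and 3, but not the others, the WT array of the same number was the best match of the Tg array. Same-numbered arrays also had close sample numbers in the labels. The labels state no pairing, so the numbers were not taken as pairs in the main test. A fit with the number as a block is among the alternatives. Arrays have no read depth, and their number limits the precision.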

Additional observations from a re-analysis of the deposited data

Results flagged for a closer look

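In the 20 groups tested (10 genes in Tg and in WT), 3 held a value whose gap to its neighbour was larger than Dixon's critical value of 0.71 times the range of the group, and chance gives about 1 in 20. All 3 were values of WT replicate 2, so they do not count as independent flags. The genes share that array, and the chance rate says little about how often 3 would fall together. Clic6 read 8.05 there, against 8.37 to 8.47 on the other WT arrays, a gap of 0.759 of the range. Sostdc1 read 8.23, against 8.73 to 8.86 (gap 0.80). Aqp1 read 7.94, against 7.64 to 7.70 (gap 0.807), and was thus high where the others were low. The cerebellar, pituitary and blood markers that moved on the same array are given above, and their part in these 3 values was not tested.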

How the results depend on the processing

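In 18 alternatives, 0 of the 10 genes passed the limma test in any, and the lowest adjusted p was 0.506, for Clic6 without WT replicate 2. The count of all probe sets past the threshold was 10 and lay between 9 and 11 under every alternative. Signs of differences this close to 0 were not stable: 38 of 180 combinations of gene and alternative changed sign, and Kcnj13 kept its sign in all 18, at 0.0819 (without Tg replicate 5) to 0.227 (without WT replicate 5) with single arrays left out. With array weights the difference was -0.00899 for Ttr, -0.00117 for Kcne2, -0.0535 for Clic6, -0.0313 for Otx2 and -0.0215 for Sostdc1. With quantile normalization it was 0.0234 for Kl, -0.00134 for Aqp1 and 0.00513 for Slc4a5, and with the sample number of the labels as covariate 0.000774 for Kl and -9.54e-05 for Aqp1. Without both arrays with pituitary signal, an alternative chosen after seeing the data, it was -0.0201 for Ttr, -0.0704 for Clic6, -0.0641 for Otx2 and -0.0446 for Sostdc1. With single arrays left out the differences ranged from -0.0143 to 0.0528 for Ttr, -0.0407 to 0.0385 for Kl, -0.0419 to 0.0337 for Folr1, -0.0411 to 0.0497 for Kcne2, -0.0735 to 0.0330 for Clic6, -0.0446 to 0.10 for Otx2, -0.0269 to 0.0577 for Aqp1, -0.0654 to 0.0231 for Slc4a5 and -0.0510 to 0.112 for Sostdc1. The cause was not tested. The count of correlated pairs past the threshold, 0 of 45, was 3 with median centring, 0 with quantile normalization and 1 by Spearman's rho. It was 4 on values centred within genotype, 1 of them with a negative r, by permutation p-values that tend to be too small there. With single arrays left out it was 0 to 1, and the 1 without Tg replicate 5 had a negative r. The median r of 0.37 was 0.51 with median centring, 0.47 with quantile normalization and 0.36 on values centred within genotype. By Spearman's rho the median was 0.27. It was 0.14 without WT replicate 2, 0.30 to 0.41 with any other single array left out, and 0.12 without both arrays with pituitary signal. With the replicate number as a block, 11 probe sets passed, and 0 of the 10 genes.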
